A study of Sus scrofa with 14 samples.

Results

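S100G, also called calbindin-D9k, is a small cytosolic calcium-binding protein of epithelial cells. The gene was measured by 2 of the 23999 probe sets tested on an Affymetrix porcine array, both named S100G and nothing else in the platform annotation, out of 6765 genes named there. It was chosen with its levels on these arrays known, for its group difference, its spread, the disagreement of its probe sets and its relation to keratin and PAG6 levels. These values are therefore given as descriptions, without a test.

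In a calcium-transporting epithelium, calcium enters the cell through the apical channel TRPV6, is bound and carried through the cytosol by S100G, and leaves through the plasma membrane calcium pump ATP2B1 or the sodium-calcium exchanger SLC8A1. Vitamin D sets S100G levels in the intestine, and in the uterus the gene is known for its response to ovarian steroids and for its place in the endometrial epithelium. S100G belongs to the S100 family of EF-hand proteins, most of which act as calcium sensors rather than carriers.

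Uterus samples came from 14 F2 sows of an Iberian x Meishan intercross, slaughtered at days 30 to 32 of the fifth gestation, with 1 array per sow, and the labels call the sows of a group biological replicates. The sows were labelled as high prolificacy (5 arrays) or low prolificacy (9 arrays), and the labels do not give the litter sizes behind these classes or the part of the uterine wall sampled. The study asked which uterine genes differ in expression between high and low prolificacy. Arrays are named below by group and replicate number, levels are log2 RMA values, and differences are high minus low prolificacy. Precision is limited by how few arrays there were.

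Muscle, epithelial and trophoblast transcripts differed between the arrays. A list mean is the average log2 level of the genes of a marker list, each centred on its mean over the 14 arrays. The smooth muscle list mean lay between -3.43 and -0.05 in the high group and between 0.71 and 1.83 in the low group, with high 1 at -0.05 well above the other high arrays. PAG6, a pregnancy-associated glycoprotein of trophoblast whose gene family has near-identical copies, had a level above 10 on 3 arrays, high 1, high 4 and low 4, and between 3.60 and 8.74 on the others. In bulk tissue, fewer cells of a type and less RNA per cell cannot be told apart.

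The brighter S100G probe set read 9.37 in high 1, 9.77 in high 2, 10.53 in high 3, 9.54 in high 4 and 10.08 in high 5. In the low group it ranged from 3.45 in low 6, through a median of 5.29 in low 2, to 8.68 in low 5. All 5 high arrays lay above all 9 low arrays, with 0.70 between the lowest high and the highest low array. Over all probe sets, 0.904% had all high arrays above all low arrays, and no weight is placed on that share because the same contrast chose the gene. The group means were 9.86 ± 0.46 (SD, n = 5) and 5.75 ± 2.02 (SD, n = 9), a difference of 4.10 ± 0.85 (SE).

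The high sows were alike in S100G and the low sows were not. The lowest and the highest low array differed 37.6-fold, against 2.22-fold in the high group. The SD of the low group was 4.40 times that of the high group and ranked 45 among all 23999 probe sets, whose median SD in the low group was 0.32. No weight is placed on that ratio or rank, because the gene was chosen partly for this spread. The high group's SD of 0.46 was near the median of 0.34 over all probe sets.

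Ordered by S100G, the low arrays ran low 5 (8.68), low 1 (7.84), low 4 (7.39), low 8 (7.05), low 2 (5.29), low 9 (4.76), low 7 (3.74), low 3 (3.60) and low 6 (3.45). The widest step, 1.77, lay between low 8 and low 2. Below it, all 5 readings were under the median of their own array (array medians were 5.72 to 5.84). No detection calls were used, so whether those 5 lay above background is not known, and the difference between groups is limited by it.

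**Figure D1:**
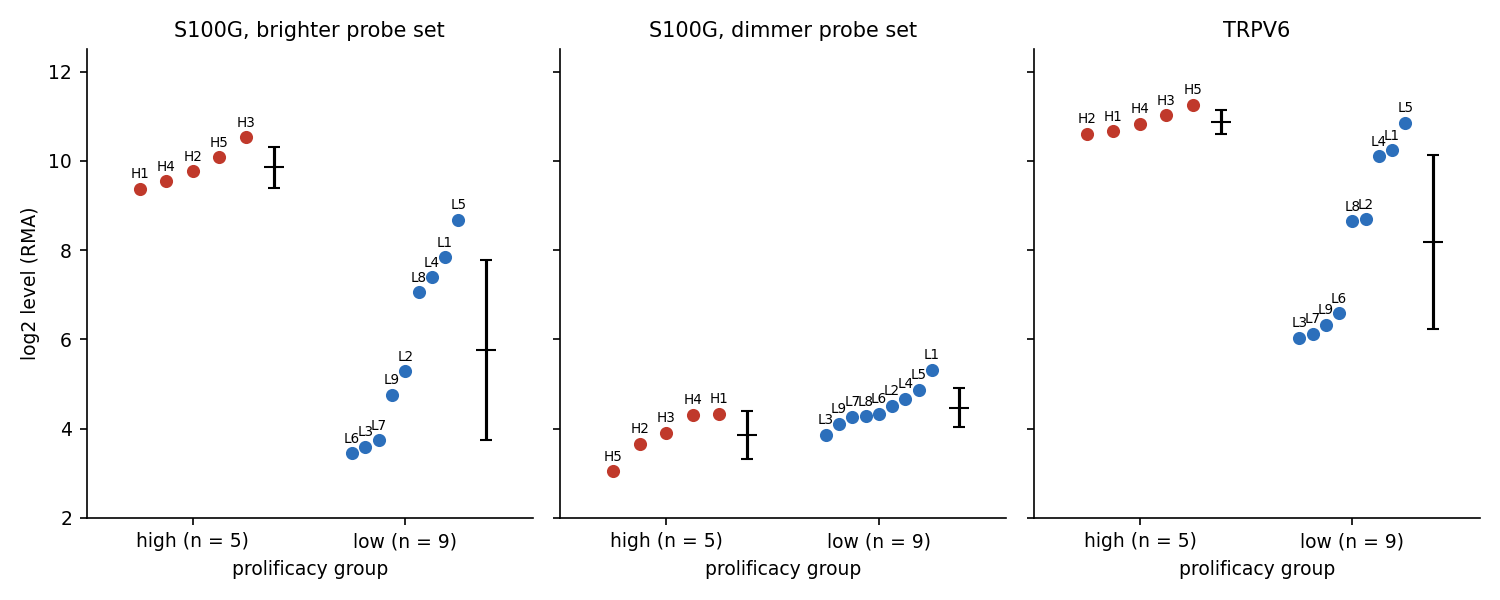
Log2 level (vertical axis) of both S100G probe sets and of TRPV6 on each array, split by prolificacy group; points are single sows (H, high; L, low), set out from lowest to highest within a group, and bars are mean ± SD. The brighter S100G probe set sits between 9.37 and 10.53 in the high group and spreads from 3.45 to 8.68 in the low group, the dimmer one stays at or below 5.32 on every array, and TRPV6 spreads in the low group much as S100G does.

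The dimmer S100G probe set gave another picture. It read 4.33 in high 1, 3.66 in high 2, 3.91 in high 3, 4.31 in high 4 and 3.04 in high 5, and between 3.86 (low 3) and 5.32 (low 1) in the low group, with a median of 4.33. The groups overlapped, and all 14 readings lay under the median of their array. Its difference was -0.62 ± 0.25 (SE), opposite in sign to that of the brighter probe set.

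Within the low group, though, the orders of the sows by the probe sets were alike in part, with a Pearson r of 0.77 and a Spearman rho of 0.77 over 9 arrays. Low 6, the lowest for the brighter probe set, was at the median of the dimmer one (4.33). Low 1 and low 5 were the highest arrays for both. The r was 0.60 without these, the arrays farthest from the median of the dimmer probe set. The brighter probe set is annotated to the S100G RefSeq transcript and the dimmer one to another GenBank sequence. Which stretch of the transcript each one reads was not analysed here.

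TRPV6, the apical entry channel of the same route, was read by 1 probe set, at 10.66 in high 1, 10.60 in high 2, 11.02 in high 3, 10.83 in high 4 and 11.26 in high 5. In the low group it ran from 6.04 in low 3, through a median of 8.65 in low 8, to 10.85 in low 5. Low 5 lay inside the range of the high group, so the groups overlapped. The means were 10.87 ± 0.27 (SD, n = 5) and 8.18 ± 1.95 (SD, n = 9), and the difference of 2.69 ± 0.81 (SE) did not pass (limma adjusted p = 0.057). The adjusted p fell to 0.023 without low 5, 0.041 without low 1, 0.043 without low 4 and 0.034 when only the brightest 12000 probe sets were tested. Over all fits that left out 1 array it lay between 0.023 and 0.13.

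TRPV6 followed S100G from sow to sow within the low group. The r was 0.95 and rho 0.88 over the 9 low arrays, and r stayed between 0.93 and 0.97 when any 1 of them was left out. Among 6764 other genes, TRPV6 ranked 4 in r over the low arrays and 3 over all 14. The 4 low arrays with the least S100G (low 9, low 7, low 3 and low 6) had TRPV6 between 6.04 and 6.58. The SD of TRPV6 in the low group ranked 52 among all probe sets, beside 45 for S100G. The arrays are shared by both genes, and no test was made.

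Of 8 listed plasma membrane export genes 2 were on the array, ATP2B1 and SLC8A1, and neither showed such a spread. SLC8A1 was dim, so its small spread says little. ATP2B1, the plasma membrane calcium pump, was at 8.47 ± 0.41 (SD, n = 5) in the high and 8.66 ± 0.26 (SD, n = 9) in the low group, which differ by -0.18 ± 0.17 (SE; limma adjusted p = 0.63), and its r with S100G over the low arrays was 0.10. SLC8A1, the sodium-calcium exchanger, read 3.55 ± 0.22 (SD, n = 5) and 4.14 ± 0.38 (SD, n = 9), all below the array medians, and differed by -0.59 ± 0.18 (SE, limma adjusted p = 0.063), with an r of -0.71. It passed without low 5 (0.034) and with cyclic loess (0.033).

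The wider list of calcium transport genes held 62 genes, of which 39 were on the array. Over all 23999 probe sets limma called 7.85%, with 3.50% higher and 4.35% lower in the high group. Of the 39 genes, 2 rose, 4 fell and 33 were not called, with a median difference of 0.02 against 0.07 over all 6764 other genes. Of all 6764 other genes, each read by its brightest probe set, 360 were higher and 367 lower. Markers of epithelium and smooth muscle, described further on, moved with the same groups, and their part in these counts was not tested.

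Among the 5 entry channel genes none was called (1 higher and 1 lower at an unadjusted p under 0.05 in limma, TRPV6 and ORAI3). TRPM7, ORAI1 and STIM2 differed by 0.07, 0.08 and 0.09. Among 3 cytosolic buffers and sensors none was called and none passed an unadjusted p of 0.05, with the calmodulin gene CALM2 at -0.37 ± 0.20 (SE, limma adjusted p = 0.31; 0.026 without high 5 and 0.040 with array weights). CALB2, calretinin, had means of 4.06 and 3.98, below the array medians.

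Of 6 store buffers none rose, 2 fell and 4 were not called, and of 10 store pumps and release channels 1 rose, 1 fell and 8 were not called. ITPR3, an inositol trisphosphate receptor that releases stored calcium, read 7.29, 9.46, 9.36, 7.51 and 9.25 in high 1 to high 5, and 5.46 to 7.11 (median 6.49) in the low group. All high arrays lay above all low arrays (0.904% of probe sets in all), with high 1 closest to low 8 at 7.11, and the rise was 4.32-fold (difference 2.11 ± 0.39, SE, limma adjusted p = 0.0045). Its r with S100G over the low arrays was 0.75. The other ITPR3 probe set, at 3.21 to 3.80, had a difference of 0.04 and did not pass.

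RYR3, a ryanodine receptor, the other type of release channel, went the other way. It read 4.11 to 4.32 in the high group and 4.57 to 6.83 in the low group, so that the groups did not overlap. RYR3 fell by 1.49 ± 0.30 on the log2 scale (SE, limma adjusted p = 0.0075). All high below all low was found for 1.74% of probe sets. The high readings and part of the low ones were below the array medians. Its 3 other probe sets were not called.

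RCN1 and RCN2, reticulocalbins that bind calcium inside the reticulum, fell, with differences of -1.62 and -1.44 (limma adjusted p = 0.026 and 0.047). Within the low group r with S100G was 0.11 for RCN1 and -0.02 for RCN2, the latter at -0.83 without low 3. Without either high 2, high 3 or high 5 the RCN1 call was lost (adjusted p between 0.070 and 0.092), and RCN2 lost its call in 12 of the 14 fits that left out an array (0.052 to 0.14), the exceptions being those without high 1 and without low 3. A dimmer RCN1 probe set, with a difference of -0.06, did not pass. ATP2A2, the calcium pump of the reticulum, falls outside the rule for named genes and is given because of its value; it differed by -0.83 ± 0.25 (SE, limma adjusted p = 0.052).

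**Figure D2:**
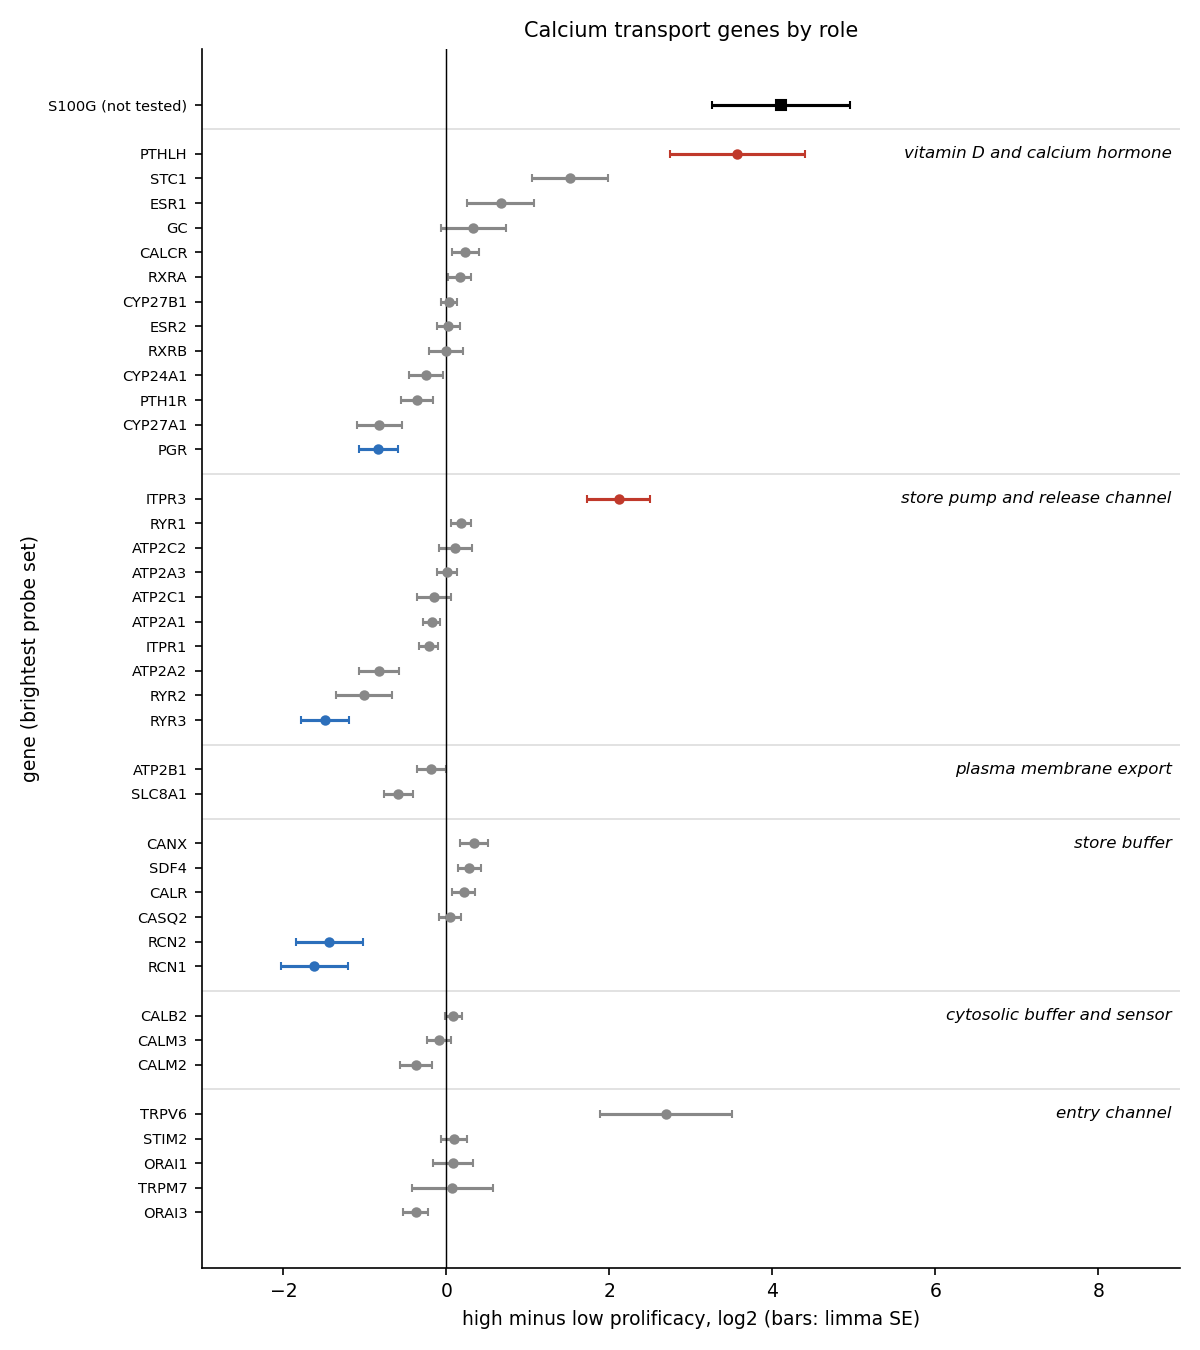
Difference of high minus low prolificacy on the log2 scale (horizontal axis, bars are limma's SE) for the 39 calcium transport genes on the array, grouped by role, with S100G on top as an untested description. Red marks genes called higher (ITPR3, PTHLH), blue genes called lower (RCN1, RCN2, RYR3, PGR) and grey those not called, among them TRPV6 at 2.69.

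Of 13 hormones, receptors and enzymes tied to calcium, vitamin D or the uterine control of S100G, 1 rose and 1 fell. PTHLH, the parathyroid hormone-related protein, read 8.95, 11.20, 11.82, 7.63 and 9.29 in high 1 to high 5, and 3.77 (low 7) to 9.24 (low 8), with a median of 6.29, in the low group. Low 8 lay above high 1 and high 4, so the groups overlapped. PTHLH rose 11.9-fold (difference 3.57 ± 0.83, SE, limma adjusted p = 0.016), and its call was lost without high 2 or high 3 (adjusted p = 0.060 and 0.062). Its r with S100G within the low group was 0.64.

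PGR, the progesterone receptor, was at 6.21 ± 0.32 (SD, n = 5) in the high and 7.04 ± 0.51 (SD, n = 9) in the low group and fell by 0.84 (limma adjusted p = 0.047). That call was lost in 9 of 14 fits without an array, those without any 1 of the high arrays, low 1, low 6, low 7 or low 9 (adjusted p between 0.054 and 0.12). It was also lost with array medians subtracted, with trend and robust settings, with PAG6 as a covariate and without the arrays with PAG6 above 10. ESR1, an estrogen receptor, differed by 0.67 ± 0.41 (SE, limma adjusted p = 0.40). Within the low group r with S100G was -0.16 for PGR and -0.48 for ESR1.

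STC1, stanniocalcin, a secreted regulator of calcium and phosphate, read 4.62 (high 4) to 7.39 (high 3) in the high group and 3.56 to 6.26 in the low group. Its difference of 1.51 ± 0.47 (SE) did not pass (limma adjusted p = 0.062). It passed without high 4 (0.016), without low 5 (0.025) and without the 3 arrays with PAG6 above 10 (0.045). The other STC1 probe sets, both dimmer, differed by 0.69 and 0.05 and did not pass. CYP24A1, which breaks down active vitamin D and is given because of its value, had an r of 0.67 with S100G within the low group, while its group difference was -0.25 ± 0.21 (SE, limma adjusted p = 0.55).

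Over the 39 calcium genes, r with S100G within the low group ran from -0.72 (CALM3) to 0.95 (TRPV6), with a median of -0.13 and 16 above 0. Over all 6764 other genes the median was -0.04. After TRPV6 the highest values, named after they were looked at, belonged to ATP2C1, a calcium and manganese pump of the Golgi (0.86), and CANX, calnexin (0.83), neither of which differed between the groups past the threshold (limma adjusted p = 0.76 and 0.27).

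The S100 relatives were measured next to S100G to see whether the family moved as one. Of 18 listed, 9 were on the array, 3 rose, 1 fell and 5 were not called, with a median difference of 0.16. At an unadjusted p under 0.05 in limma, 4 were higher and 2 lower. Among these, S100A12 (difference 0.56) and S100B (-1.25), given because of their values, were not called (limma adjusted p = 0.057 and 0.052). Over all 6764 other genes 360 were higher and 367 lower. S100A9, a calgranulin of neutrophils that epithelia also make, read 5.01 (high 4) to 8.21 (high 2) in the high group and 3.04 to 5.11 in the low group, where low 1 lay just above high 4, a rise of 5.52-fold (limma adjusted p = 0.0051). Its usual partner S100A8 had means of 3.43 and 3.28 and differed by 0.16 ± 0.11 (SE, limma adjusted p = 0.49). Both S100A8 means, and S100A9 in high 4 and in every low array, lay below the array medians and may lie near background.

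S100A14, an S100 protein of epithelia, rose 2.64-fold, with the high arrays at 7.70 to 8.43 above the low arrays at 5.16 to 7.51 (limma adjusted p = 0.028). All high above all low was found for 0.904% of probe sets. S100A1 rose 3.51-fold (limma adjusted p = 0.035), with low 3 at 9.63 above high 1 at 9.60 and high 4 at 9.49. S100A10, the partner of annexin A2, fell by 0.54, with all high arrays (11.42 to 11.81) below all low arrays (11.82 to 12.64, limma adjusted p = 0.026). All high below all low was found for 1.74% of probe sets. Without high 2, high 3 or high 5 the S100A14 and S100A10 calls were lost (adjusted p up to 0.079 and 0.082), and S100A1 lost its call in 7 of 14 such fits, without those arrays, low 2, low 4, low 8 or low 9 (up to 0.11).

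Within the low group r with S100G was 0.68 for S100A9, 0.58 for S100A14, 0.33 for S100A1 and -0.31 for S100A10, and the median over the 9 was 0.08. The largest fitted difference in the family after that of S100G was the 2.46 of S100A9. No test of one gene's difference against another's was made.

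Epithelial transcripts moved with the same groups as S100G. Of 16 epithelium marker genes on the array, 9 rose, none fell and 7 were not called, with a median difference of 1.95 (range 1.20 to 2.47). Over all 6764 other genes 360 were higher and 367 lower, with a median difference of 0.07. The keratin KRT8 read 11.12, 11.81, 12.19, 10.95 and 12.33 in high 1 to high 5 and 7.76 to 9.91 (median 9.50) in the low group, and rose 5.55-fold (limma adjusted p = 0.0024). A dimmer KRT8 probe set rose too, with groups that overlapped. KRT19 and KRT18 rose 5.54- and 4.83-fold, also without overlap, and SPINT1, an epithelial protease inhibitor, 4.23-fold (limma adjusted p = 0.0036, 0.0085 and 0.0040). The epithelium list mean was 0.67 to 1.66 in the high group and -2.54 to 0.26 in the low group. With that mean as a covariate the S100G difference was 2.05 in place of 4.10, and the group label explained 55.4% of the variance of that mean.

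Within the low group the S100G level did not simply order the sows by keratin. KRT8 was highest in low 3, at 9.91, where S100G read 3.60, and lowest in low 7, at 7.76, where S100G read 3.74. Low 3 and low 1 both had an epithelium list mean of 0.05, with S100G at 3.60 and 7.84. Low 3 had the lowest array weight of the low arrays, at 0.29. Over the 9 low arrays r with S100G was 0.50 for KRT8, 0.35 for KRT18, 0.54 for KRT19 and 0.57 for the epithelium list mean (rho 0.30, 0.27, 0.58 and 0.57).

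Without low 3 these r were 0.72, 0.63, 0.75 and 0.76. Without low 7 and low 9, the arrays poorest in epithelium, they were 0.33, -0.19, 0.46 and 0.57, so the relation to KRT18 rested on those arrays. All 16 epithelium genes had an r with S100G above 0 (0.09 to 0.72, median 0.53), beside 3211 of 6764 genes in all. No weight is placed on that count, because S100G was chosen partly for its relation to keratin levels. The 16 genes were also read on the same arrays and are not separate observations. The part of epithelial content in the S100G difference was not tested.

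**Figure D3:**
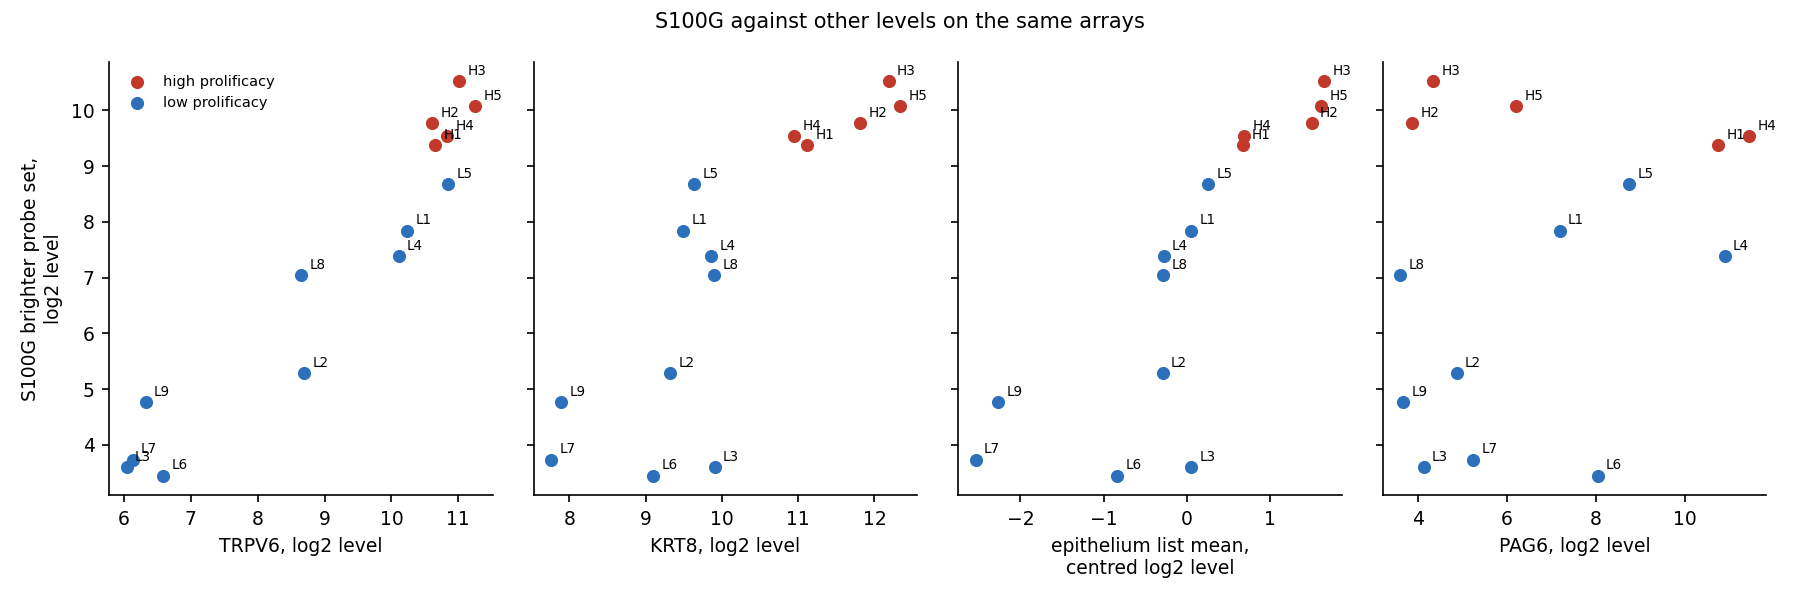
Log2 level of the brighter S100G probe set (vertical axis) against TRPV6, KRT8, the epithelium list mean and PAG6 on the same 14 arrays (red, high; blue, low prolificacy). TRPV6 rises with S100G over the 14 arrays, though not step for step, and levels off among the arrays highest in S100G. KRT8 and the epithelium mean also rise with S100G, with low 3 and low 6 below the other low arrays of like level. PAG6 runs from 3.86 to 11.43 in the high group. On the arrays with less S100G than low 8 it runs from 3.66 to 8.03.

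PAG6, by contrast, was spread widely in both groups. The brightest of its 3 probe sets read 10.74, 3.86, 4.33, 11.43 and 6.21 in high 1 to high 5, while S100G stayed between 9.37 and 10.53. In the low group low 8 had the lowest PAG6 (3.60) with S100G at 7.05, and low 6 had a PAG6 of 8.03 with the lowest S100G. The group difference of PAG6 was 1.06 ± 1.49 (SE, limma adjusted p = 0.77), and it was -0.54 with array weights. Over the 9 low arrays r with S100G was 0.46 and rho 0.33, and without low 4 and low 5, the arrays richest in PAG6, r was -0.02.

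Of 8 trophoblast genes on the array none was called (1 higher and 0 lower at an unadjusted p under 0.05 in limma), and TFAP2C, HAND1 and GATA3 differed by 0.84, 1.03 and 0.87. The trophoblast list mean ran from -1.21 to 2.74 in the high group and from -1.26 to 1.45 in the low group. The S100G difference was 4.57 without the 3 arrays with PAG6 above 10 and 3.96 with PAG6 as a covariate.

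Smooth muscle transcripts opposed S100G. Of 14 smooth muscle genes, 13 fell, none rose and 1 was not called, with a median difference of -3.18. CNN1, PDLIM3 and MYL9 fell, with differences of -4.62, -5.98 and -3.33 (limma adjusted p at most 0.00072). Within the low group r between S100G and the smooth muscle list mean was -0.64 (-0.37 without low 5 and low 7, the arrays farthest from the median). With that mean as a covariate the S100G difference was 1.55, and the group label explained 83.1% of the variance of that mean, so muscle content and group cannot be told apart here. In high 1, whose smooth muscle mean was -0.05 against -2.36 or less in the other high arrays, S100G was 9.37, the lowest of the high group. High 4, with a smooth muscle mean of -2.36, read little more, at 9.54. Of 9 stromal fibroblast genes 1 rose and 4 fell, of 8 endothelium genes 1 rose and 1 fell, and of 8 leukocyte and 3 red blood cell genes none was called (3 leukocyte genes higher and 1 red blood cell gene lower at an unadjusted p under 0.05 in limma). Beside these small counts, 360 of all 6764 other genes were higher and 367 lower.

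The genes whose pattern was most like that of S100G were ranked by Pearson r with the brighter probe set over the 9 low arrays, among 6764 other genes. The first 8 were B4GALT5, a galactosyltransferase (0.99), SPC25, a kinetochore protein (0.98), BZW2, a regulator of translation (0.97), TRPV6 (0.95), the membrane mucin MUC4 (0.94), GK, glycerol kinase (0.94), MAD2L1, a spindle checkpoint protein (0.94), and FADS6, of the fatty acid desaturase family (0.94). With so many genes and 9 arrays, high values of r occur without any relation, and no p is attached to them.

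Of these, BZW2, MUC4, GK and FADS6, were also called higher in the high group. MUC4 read 8.25, 10.08, 10.10, 8.84 and 9.20 in high 1 to high 5, and 4.02 to 7.85 (median 6.49) in the low group. It rose 10.1-fold without overlap (0.904% of probe sets in all), with a limma adjusted p of 0.014, and 0.051 without high 3. Like S100G and TRPV6, it was at its lowest in low 3, low 6, low 7 and low 9 (4.02 to 4.46) and at 7.43 or more in low 1, low 4, low 5 and low 8. BZW2 rose 2.91-fold (limma adjusted p = 0.0038) and FADS6 3.55-fold (0.014). The other BZW2 probe set had an r of 0.92 with S100G, and the other FADS6 probe sets had r of 0.93 and 0.99. The other GK probe set, which was dimmer, had an r of 0.40. GK rose 2.96-fold (limma adjusted p = 0.023; lost without high 2, high 3 or high 5).

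B4GALT5, SPC25 and MAD2L1 had group differences that did not pass. Their differences were 0.93, 0.67 and 0.28 (limma adjusted p = 0.175, 0.287 and 0.828). Without high 5 B4GALT5 passed (0.041), and with array weights too (0.043). High 5 was the lowest high array for each of the 3 genes, at 7.64, 2.36 and 4.68. Its array weight, 0.25, was the lowest of all arrays. The other B4GALT5 probe sets, both dimmer, had r of 0.77 and 0.88, differed by 1.54 and 1.77 and were called (limma adjusted p = 0.00996 and 0.00792). SPC25 was dim throughout, at 2.13 to 4.90.

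**Figure D4:**
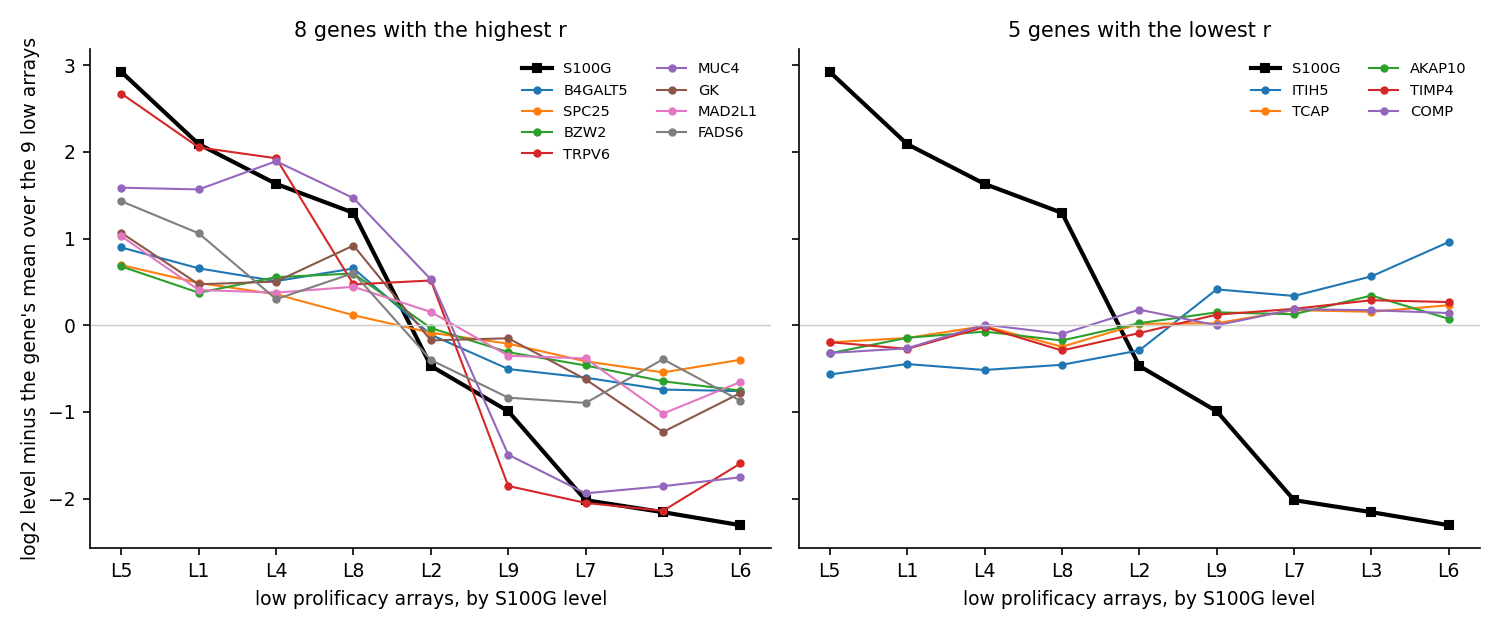
Log2 level minus the gene's mean over the 9 low prolificacy arrays (vertical axis), with the arrays ordered by S100G (horizontal axis), for S100G in black and for the genes with the highest (left) and lowest (right) r with it. TRPV6 and MUC4 span a range close to that of S100G, while B4GALT5, SPC25, BZW2, GK, MAD2L1 and FADS6 follow its order, not always step for step, over a smaller range; of the opposed genes ITIH5 spans the most.

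Over all 14 arrays the 8 genes with the highest r were MUC4 (0.97), BZW2 (0.96), TRPV6 (0.96), FADS6 (0.95), PLEK2, of the pleckstrin family (0.95), CKMT1A, a mitochondrial creatine kinase (0.94), GK (0.93) and WFDC2, a secreted protein of epithelia (0.93). These r hold the group difference as well as the order of sows. PLEK2, CKMT1A and WFDC2 rose 3.78-, 5.96- and 8.36-fold (limma adjusted p = 0.0092, 0.011 and 0.0059), and their r within the low group was 0.88, 0.91 and 0.84. A dimmer WFDC2 probe set rose 1.72-fold (limma adjusted p = 0.014), with an r of 0.43 within the low group.

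At the other end, the 5 genes with the lowest r over the low arrays were ITIH5, a matrix protein (-0.91), TCAP, a sarcomere protein (-0.90), AKAP10, a kinase anchor (-0.90), TIMP4, a metalloprotease inhibitor (-0.89), and COMP, a matrix protein (-0.89). ITIH5 fell by 1.26 (limma adjusted p = 0.020, lost without high 2 or high 3) without overlap, as 1.74% of probe sets did in that direction. Its r over all 14 arrays, -0.91, was also the lowest of all genes. TCAP, AKAP10, TIMP4 and COMP differed by 0.08, 0.22, -0.17 and 0.08 and were not called. Their SD in the low group was at most 0.23, below the median of 0.32 over all probe sets. The other probe sets of TIMP4 and COMP had r of -0.30 and -0.39.

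S100G lies on chromosome X in the Sscrofa11.1 gene table, where its neighbour SYAP1 and, next along, TXLNG were also on the array. SYAP1 differed by -0.41 ± 0.39 and TXLNG by 0.50 ± 0.19 (SE, limma adjusted p = 0.63 and 0.12), with r of 0.67 and 0.01 within the low group.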

How the data were processed

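Total RNA of 14 uterus samples (5 high, 9 low prolificacy) was hybridized as biotin-labelled cRNA to 1 array each, per the labels' protocols. The authors deposited log2 levels per probe set. RMA is the tool named (per the submitters' processing notes), and neither its settings nor an array batch is stated in what was read here. RMA equalizes probe intensities between arrays, so a shift shared by most transcripts would be removed.

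Of 24123 probe sets, 124 Affymetrix controls were left out. The 23999 others had 1 symbol (10069), several (198) or none (13732) in the platform annotation, which can be old, and a gene is its brightest probe set with 1 symbol. High minus low was fitted with limma 3.58.1 in R 4.3.3 (lmFit, eBayes, two-sided, no covariate, no filter), adjusted by Benjamini-Hochberg over all 23999, threshold 0.05. In simulated data it recovered 8% of changes of 0.5, 58% of 1, 94% of 2 and 100% of 4 on the log2 scale, with 6 false calls among 136. The simulation used the real mean of each probe set, 1 residual SD for both groups and independent normal noise. The real groups differed in spread and genes moved together, so these shares may not hold for the real data. S100G got no test. Correlations are Pearson's r and Spearman's rho, computed in Python 3.11.15, as descriptions.

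S100G, the gene lists and the rule for named genes were chosen with earlier results of these data known. The rule took both S100G probe sets, KRT8, KRT18, KRT19, PAG6, every called calcium transport or S100 gene, the gene with the smallest p in each role with none called, TRPV6, ATP2B1, STC1, ESR1 and PGR (CALB1, VDR and CASR were listed too and not read under those symbols), the 8 highest and 5 lowest genes by r over the low arrays, the 8 highest over all 14, and 3 genes from each of the epithelium, smooth muscle and trophoblast lists, which gave 43 genes. Alternatives were cyclic loess, subtraction of array medians, the 12000 brightest probe sets, array weights, trend and robust settings, the epithelium mean as a covariate, a replicate block, any probe set of a gene, and leaving out each array. The smooth muscle mean and PAG6 as covariates, and leaving out the arrays with PAG6 above 10, were added after seeing the data.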

Additional observations from a re-analysis of the deposited data

Results flagged for a closer look

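In 106 groups of 5 or 9 arrays checked for an array far from the rest (both S100G probe sets, 42 other named genes and 9 list means, in each group), 3 were found, where chance gives about 1 in 20 groups. Neither S100G probe set nor TRPV6 was among them. RCN2 read 8.50 in low 3, below all other low arrays by a gap of 0.58 of the range of that group. PLEK2 read 6.19 in high 1, below the other high arrays by a gap of 0.72 of the range. The red blood cell list mean was 1.49 in high 4, above the other high arrays by a gap of 0.79 of the range.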

How the results depend on the processing

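The S100G difference of the brighter probe set lay between 3.81 and 4.47 when 1 array was left out and between 3.58 and 4.12 under other scalings, array weights and PAG6 as a covariate; it was 4.57 without the arrays with PAG6 above 10, 2.05 with the epithelium mean and 1.55 with the smooth muscle mean as a covariate. The dimmer probe set kept its negative sign in each alternative run (-0.74 to -0.41 without 1 array, -0.91 to -0.30 otherwise). The labels do not say whether replicate numbers pair sows, and a check on so few pairs could not decide it. In that check 3 of 5 same-numbered pairs had correlated deviations over 0.1, and 1 of 5 correlated best with its own number. With the replicate block the S100G difference was 3.30 and limma called 35 probe sets in place of 1885, 1 epithelium gene, and 0 calcium, S100 or smooth muscle genes in either direction. With array weights 3060 were called. With the epithelium mean 2 were called, with the smooth muscle mean 0, and with either covariate 0 calcium, S100, epithelium and smooth muscle genes. Each covariate is a mean of marker genes counted here and shares variance with the group (55.4% and 83.1%). These low counts therefore cannot tell cell content from group. Leaving out 1 array gave 944 (without high 3; 1002 without high 2) to 2650 calls, 1 to 4 calcium genes higher and 1 to 5 lower, 1 to 4 S100 genes higher and 0 to 2 lower, 5 to 12 epithelium genes higher and 13 to 14 smooth muscle genes lower. S100 genes lower numbered 2 with cyclic loess, array weights, the 12000 brightest probe sets or without the arrays with PAG6 above 10. Among called genes signs reversed, none past the limma threshold, for S100A1 with the epithelium mean (-0.092) and with the smooth muscle mean for KRT18 (-0.030), RCN1 (0.34), RCN2 (0.56), ITPR3 (-0.28), S100A10 (0.10), S100A1 (-0.057), GK (-0.24), ITIH5 (0.14) and CKMT1A (-0.15). Of 17 named genes not called, 9 had the other sign in some alternative, among them PAG6 (-0.54 with array weights, -0.88 without the arrays with PAG6 above 10), GATA3 (-0.092 and -0.35) and MAD2L1 (-0.084 without high 4). Without the arrays farthest from the median, r within the low group turned to -0.19 for KRT18 and -0.019 for PAG6. Of 25 named genes called, 10 lost the call without some array. Levels below the array medians may lie near background, which limits S100G in 5 low arrays.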
